A study of Mus musculus with 12 samples.

Results

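The endoplasmic reticulum (ER) disulfide oxidoreductase genes described here are P4hb, Pdia3, Pdia4, Pdia5, Pdia6, Txndc5, Txndc11, Creld2, Ero1l and Ero1lb. They were chosen by name, by looking for each symbol in the gene names of the deposited table. All 10 of 10 symbols were found, each at 1 of the 27109 loci of that table, and all 10 passed the authors' test filter in each of the 4 comparisons used. Poly(A)-selected RNA of mouse liver was sequenced in 12 libraries from C57BL/6 mice, 3 in each of 4 groups. Mice of the first group carried a liver-specific deletion of Atf4 (LsATF4-KO) and had received 1 mg/kg tunicamycin, a blocker of N-linked glycosylation that stresses the ER. The second group was wild type and had received the same tunicamycin dose. The third was LsATF4-KO with 0.3% DMSO, and the fourth was wild type with 0.3% DMSO. All injections were intraperitoneal and all livers were taken at 6 h. Neither the ages of the mice nor the Cre driver nor the deleted exons of Atf4 is stated in the labels.

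Proteins that enter the ER fold in an oxidising lumen, where pairs of cysteines are joined into disulfide bonds. Protein disulfide isomerases carry thioredoxin-like domains whose active-site cysteines hand a disulfide to a client or rearrange wrong ones. The ERO1 oxidases reoxidise these isomerases by passing electrons on to oxygen, which releases hydrogen peroxide. The liver secretes most plasma proteins, albumin among them, and many of these carry disulfides. Unfolded protein in the ER activates the sensors IRE1, ATF6 and PERK, and PERK signalling raises translation of the transcription factor ATF4. ATF6 and the IRE1 product XBP1 are known to bind the ER stress response element (ERSE) and the unfolded protein response element (UPRE) in promoters of ER folding genes.

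The promoters of these genes are shown first, to give the stress elements that the members hold. RefSeq start sites of build GRCm38.p6 gave 13 windows for the 10 genes, each 300 bases long, with 250 bases before the start and 50 after it. Exact matches were searched on both strands. The ERSE was read as CCAAT and CCACG with 9 bases between them, the ERSE end box as CCACG alone, and the UPRE core as TGACGTGG. The ERSE-II was read as ATTGG and CCACG with 1 base between them, and the ATF4 composite element as TGATGNAAT. An ERSE end box lies within every ERSE, ERSE-II and UPRE core. The bases before the start are printed for 6 genes, 5 prime to 3 prime on the gene's own strand, with matches to the ERSE, the UPRE core or the end box on either strand in capitals. Creld2, Pdia6 and Ero1lb hold an ERSE, Txndc11 a UPRE core, Ero1l was the member that was lower in knockout than in wild type with tunicamycin, and Pdia5 was the one not called after tunicamycin. The windows are chr15:88819396-88819645 (plus strand), chr12:17266339-17266588 (plus strand), chr13:12565633-12565882 (plus strand), chr16:11134533-11134782 (minus strand), chr14:45318573-45318822 (minus strand) and chr16:35490874-35491123 (minus strand), in the order of the lines.
Creld2: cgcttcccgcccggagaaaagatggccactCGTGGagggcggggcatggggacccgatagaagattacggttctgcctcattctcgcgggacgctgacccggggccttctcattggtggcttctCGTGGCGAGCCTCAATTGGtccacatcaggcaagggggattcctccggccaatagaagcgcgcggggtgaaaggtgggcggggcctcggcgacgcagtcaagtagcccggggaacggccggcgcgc
Pdia6: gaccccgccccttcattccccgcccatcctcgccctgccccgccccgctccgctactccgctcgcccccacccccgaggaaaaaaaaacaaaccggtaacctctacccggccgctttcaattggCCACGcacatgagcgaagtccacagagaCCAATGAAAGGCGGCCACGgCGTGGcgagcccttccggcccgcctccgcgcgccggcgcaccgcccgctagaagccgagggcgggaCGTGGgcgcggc
Ero1lb (Ero1b in RefSeq): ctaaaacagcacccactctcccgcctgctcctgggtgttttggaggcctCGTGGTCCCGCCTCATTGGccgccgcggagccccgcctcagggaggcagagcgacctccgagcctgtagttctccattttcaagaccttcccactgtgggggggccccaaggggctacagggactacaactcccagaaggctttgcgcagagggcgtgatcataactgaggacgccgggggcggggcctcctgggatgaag
Txndc11: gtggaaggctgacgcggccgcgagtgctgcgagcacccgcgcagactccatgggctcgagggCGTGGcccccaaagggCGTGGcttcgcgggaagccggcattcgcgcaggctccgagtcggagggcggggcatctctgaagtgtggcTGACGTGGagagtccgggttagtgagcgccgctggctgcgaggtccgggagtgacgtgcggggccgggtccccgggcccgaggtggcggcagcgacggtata
Ero1l (Ero1a in RefSeq): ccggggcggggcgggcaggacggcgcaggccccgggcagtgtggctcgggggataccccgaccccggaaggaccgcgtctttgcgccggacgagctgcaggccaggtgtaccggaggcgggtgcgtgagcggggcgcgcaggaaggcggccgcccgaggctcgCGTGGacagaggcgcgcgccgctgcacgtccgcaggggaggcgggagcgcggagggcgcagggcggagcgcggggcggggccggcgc
Pdia5: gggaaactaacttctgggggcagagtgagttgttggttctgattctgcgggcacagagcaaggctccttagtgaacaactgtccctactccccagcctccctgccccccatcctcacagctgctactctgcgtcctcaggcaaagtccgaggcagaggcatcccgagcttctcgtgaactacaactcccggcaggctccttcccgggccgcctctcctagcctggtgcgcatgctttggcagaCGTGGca

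The ERSE stood in 3 of the 10 genes, Creld2 at -126 to -108, Pdia6 at -98 to -80 and Ero1lb at -201 to -183 from the start site. Of all 32851 RefSeq windows of the same length, 0.119% held it. The match read on the gene's own strand in Pdia6 and on the opposite strand in Creld2 and Ero1lb, where it appears as the reverse complement. The UPRE core stood in 2 genes, at -102 to -95 of 1 of the 2 start sites of Txndc11 and at -138 to -131 of 1 of the 3 start sites of Txndc5, against 0.676% of all windows. An end box stood in 9 of the 10 genes, all but Pdia3, and in 10 of their 13 windows, against 32.8% of all windows. Pdia5 and Ero1l each had 1 end box, at -7 to -3 and at -87 to -83, and neither the ERSE nor the UPRE core in these windows. P4hb, Pdia3 and Pdia4 likewise held neither exact element, and each rose after tunicamycin in both genotypes. No window of a member held an exact ERSE-II (0.0365% of all windows) or ATF4 composite element (0.965%). With the last base of the ERSE left free, a choice made after the data were seen, Pdia3 (-29 to -12) and Pdia4 (-107 to -90) also matched, which made 5 genes, against 0.365% of all windows. A match is a run of letters, and no binding was measured.

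**Figure D1:**
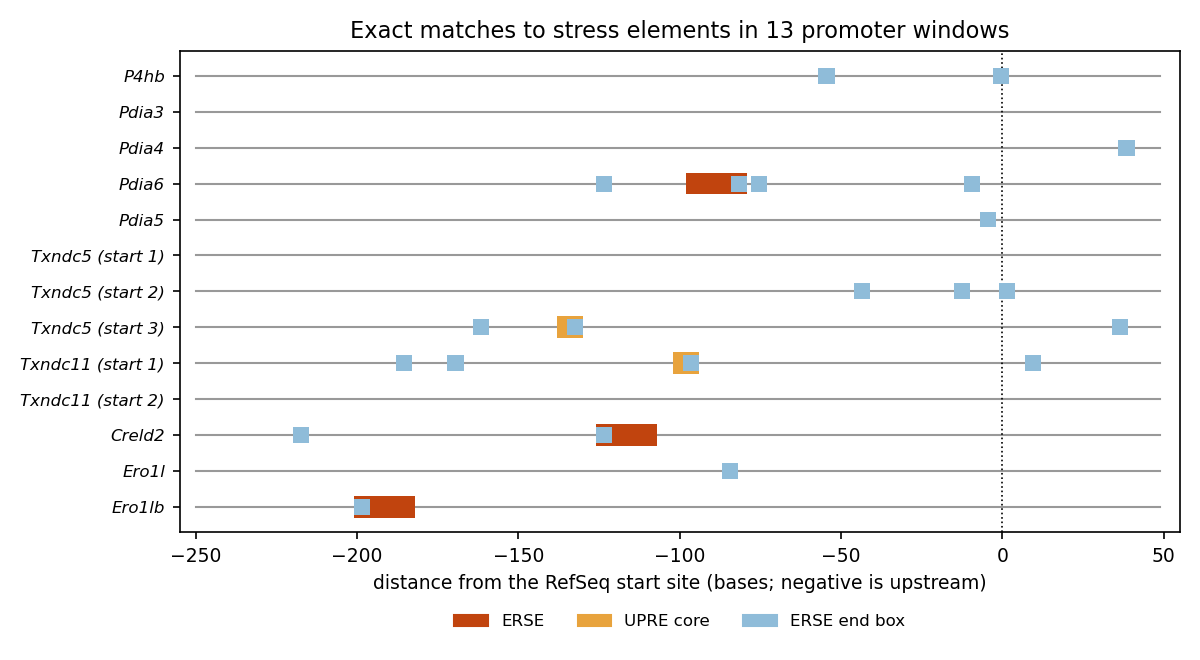
Positions of exact matches in the 13 promoter windows of the 10 genes, with distance from the RefSeq start site in bases on the x axis and 1 line per start site. Coloured boxes mark the ERSE, the UPRE core and the ERSE end box; the ERSE boxes of Creld2, Pdia6 and Ero1lb all lie upstream of the start.

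Creld2 shares a promoter with Alg12, which encodes a mannosyltransferase that builds the glycan precursor of N-linked glycosylation. Their RefSeq start sites lie 328 bases apart on opposite strands, and the ERSE of Creld2 falls at -220 to -202 of Alg12. In the table both genes are also listed with the same mapped interval. Alg12 had 78.6 FPKM in knockout and 102 FPKM in wild type with tunicamycin, against 5.11 FPKM in knockout and 5.69 FPKM in wild type with DMSO. Per the authors' deposited table, it rose by 3.94 (knockout) and 4.16 (wild type) on the log2 scale after tunicamycin, q 0.000396 in each. The labels and notes do not say how reads were divided between overlapping transcripts of the interval, so the values of Creld2 and Alg12 are uncertain to that extent.

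Each value that follows is 1 FPKM (sequenced fragments corrected for transcript length and for mapped fragments in all) per gene and group, which the authors computed from the 3 libraries of the group together. Values of single libraries were not used here, so overlap of groups and spread within a group cannot be stated, and sequencing depth is unknown. A gene is said to have risen or fallen where its q in the authors' deposited table was under 0.05. Standard errors (SE) of log2 fold changes were derived from the test statistic and p-values of that table. They measure the spread as the authors' test modelled it, and nothing in the labels says whether the 3 libraries of a group came from separate animals. The 3 knockout libraries with DMSO came from lane 5 and the remaining 9 libraries from lane 4. Lane and group therefore cannot be told apart wherever the knockout with DMSO is compared.

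As a check of the labels, the locus of Atf4, which the assembly merged with Cacna1i, had 114 FPKM in knockout and 356 FPKM in wild type with tunicamycin, against 22.8 FPKM in knockout and 46.9 FPKM in wild type with DMSO. By the authors' deposited table, it was lower in the knockout with tunicamycin (log2 -1.64, q 0.000396) and not called with DMSO (log2 -1.04, q 0.270). Of 10 hepatocyte markers all were matched, and their FPKM summed to 11453 and 13972 with tunicamycin in knockout and wild type, against 18160 and 22395 with DMSO. The albumin gene Alb is listed at 0 in every group because the authors' table marks it as too deep to compute. The knockout tunicamycin group also held markers of tissues other than liver. Skeletal muscle markers (8 genes) summed to 270.2 FPKM in knockout against 4.31 FPKM in wild type with tunicamycin. Adrenal cortex markers (8 genes) summed to 1401 against 83.0 FPKM, and fat markers (7 genes) to 275 against 32.8 FPKM, in the same order. With DMSO, in knockout and wild type, the sums were 2.09 and 1.71 FPKM for muscle, 62.9 and 85.1 FPKM for adrenal cortex and 28.5 and 19.0 FPKM for fat. Markers of plasma and B cells, which are rich in ER folding proteins, summed over 9 genes to 82.3 FPKM in knockout and 60.2 FPKM in wild type with tunicamycin, against 145 FPKM in knockout and 151 FPKM in wild type with DMSO. Of the muscle, adrenal and fat lists 7 of 8, 4 of 8 and 3 of 6 tested genes were higher in the knockout with tunicamycin in the authors' deposited table, and none was lower. Of the hepatocyte markers 1 of 9 tested was lower and none higher there. Over all tested loci 3.73% were called higher and 2.19% lower in that comparison. The hepatocyte count thus differs from the background by less than 1 gene. Liver endothelium markers (8 genes) summed to 83.6 FPKM in knockout and 114 FPKM in wild type with tunicamycin, against 138 FPKM in knockout and 90.3 FPKM in wild type with DMSO, and 2 of 8 were lower in the knockout with tunicamycin in the authors' deposited table.

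After tunicamycin the set rose almost as a whole in both genotypes. By the q of the authors' deposited table, 9 of the 10 genes were higher with tunicamycin in the knockout and the same 9 in wild type, and none was lower. Of all tested loci 18.1% were called higher and 14.8% lower in the knockout, against 18.1% higher and 19.0% lower in wild type. The median log2 fold change of the 10 genes was 2.18 in the knockout, against 0.01 over all tested loci, and 2.47 in wild type, against -0.02 over all tested loci. Pdia5 was the exception in both genotypes. The summed FPKM of the 10 genes was 7883 in knockout and 9775 in wild type with tunicamycin, against 1326 in knockout and 1356 in wild type with DMSO. That is a 5.95-fold higher sum in the knockout and a 7.21-fold higher sum in wild type, with 1.55% and 1.75% of the FPKM of all loci after tunicamycin against 0.232% and 0.199% with DMSO. Loci marked as too deep to compute are listed at 0 and add nothing to the FPKM of all loci. Hspa5 and Hsp90b1 were such loci with tunicamycin only. With DMSO they had 329 and 452 FPKM in knockout and 409 and 398 FPKM in wild type. The shares with tunicamycin and with DMSO are therefore not like for like. In liver RNA, fewer cells of a type and less RNA per cell cannot be told apart.

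**Figure D2:**
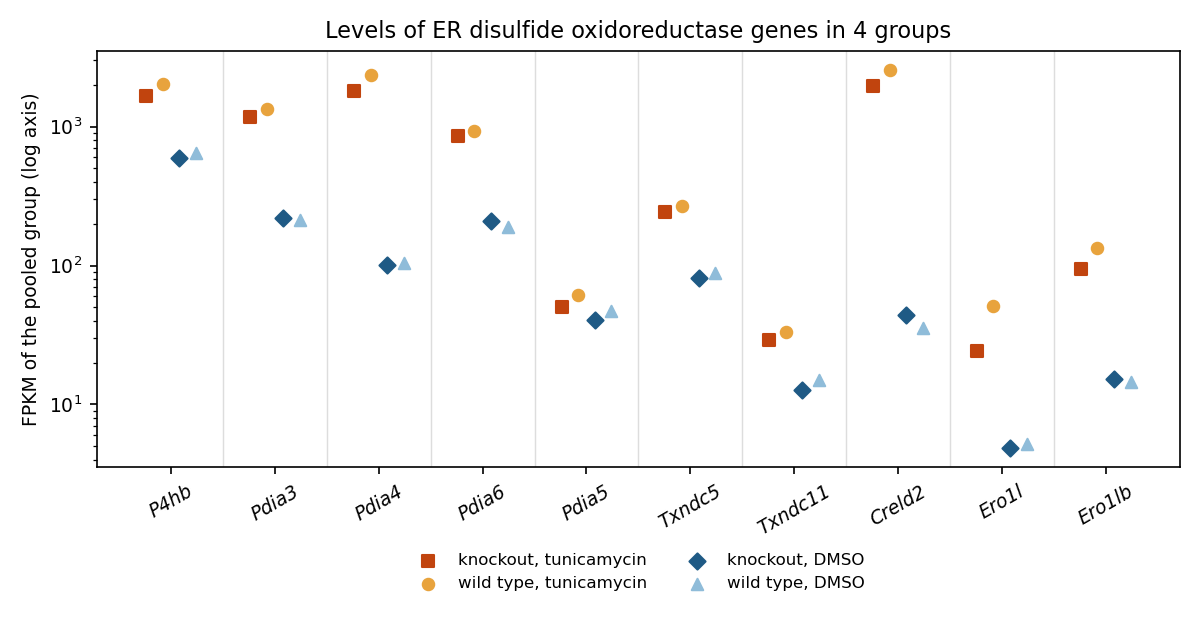
Level of each of the 10 genes in FPKM (log axis) in the 4 groups, 1 pooled value per gene and group with no error bar. Both tunicamycin points lie above both DMSO points for every gene, by the least in Pdia5.

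The classical isomerases were the most abundant members in unstressed liver. P4hb (mm9 chromosome 11, 120421618 to 120434250) encodes protein disulfide isomerase itself, which also serves as a subunit of prolyl 4-hydroxylase and of the microsomal triglyceride transfer complex. P4hb had 1652 FPKM in knockout and 2018 FPKM in wild type with tunicamycin, against 597 FPKM in knockout and 645 FPKM in wild type with DMSO. In the authors' deposited table P4hb rose by 1.47 (SE 0.33, q 0.00140) in the knockout and by 1.65 (SE 0.34, q 0.000396) in wild type on the log2 scale. Both tunicamycin levels were above both DMSO levels, yet among the classical isomerases called here its fold change was the smallest in either genotype.

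Pdia3 (mm9 chromosome 2, 121239638 to 121264422) encodes ERp57, which works on glycoproteins held by the lectin chaperones calnexin and calreticulin. Pdia3 had 1167 FPKM in knockout and 1330.4 FPKM in wild type with tunicamycin, against 219 FPKM in knockout and 212 FPKM in wild type with DMSO. Per the authors' deposited table, it rose by 2.41 (SE 0.28) in the knockout and 2.65 (SE 0.29) in wild type on the log2 scale, both q 0.000396. Pdia6 (mm9 chromosome 12, 17273401 to 17331536) encodes the isomerase P5, known as a partner of the chaperone BiP. Pdia6 had 850.4 FPKM in knockout and 933 FPKM in wild type with tunicamycin, against 209.8 FPKM in knockout and 189.7 FPKM in wild type with DMSO. It rose by 2.02 (SE 0.28) in the knockout and 2.30 (SE 0.28) in wild type on the log2 scale in the authors' deposited table, both q 0.000396. Both genes were above their DMSO levels in each genotype, with Pdia3 above Pdia6 in every group. The table lists Pdia6 with the same interval as Atp6v1c2, which was at or under 0.381 FPKM in every group and was not tested.

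Pdia4 had the largest rise among the isomerases. Pdia4 (mm9 chromosome 6, 47746140 to 47763511) encodes ERp72, an isomerase with 1 more thioredoxin-like active domain than P4hb has. It had 1818 FPKM in knockout and 2372 FPKM in wild type with tunicamycin, against 101 FPKM in knockout and 104 FPKM in wild type with DMSO. By the authors' deposited table, the rise was 4.17 (SE 0.31) in the knockout and 4.50 (SE 0.33) in wild type on the log2 scale, both q 0.000396, or 18.0-fold and 22.7-fold. Of tested loci 1.42% had a larger log2 fold change in the knockout and 0.779% in wild type. With tunicamycin Pdia4 stood above P4hb, Pdia3 and Pdia6 in both genotypes, and with DMSO below all of them.

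Pdia5 was the member that did not pass the test. Pdia5 (mm9 chromosome 16, 35397394 to 35490959) encodes an isomerase known in mouse and human cells for acting on the disulfides of the stress sensor ATF6. Its level was 50.4 FPKM in knockout and 61.4 FPKM in wild type with tunicamycin, against 40.3 FPKM in knockout and 47.4 FPKM in wild type with DMSO. In the authors' deposited table its log2 fold change after tunicamycin was 0.32 (SE 0.20, 95% interval -0.06 to 0.71, q 0.261) in the knockout and 0.38 (SE 0.19, unadjusted p 0.0478, q 0.146) in wild type. The upper bound in wild type, 0.75, lies under the estimated rise of every other member in that genotype. The 95% interval of Txndc11 there, 0.61 to 1.69, still overlaps that of Pdia5. For the members that were called, the smallest rise was that of Txndc11.

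The thioredoxin-domain members had smaller fold changes than Pdia3, Pdia4 and Pdia6. Txndc5 (mm9 chromosome 13, 38592140 to 38620693) encodes ERp46, an isomerase that introduces disulfides rapidly into unfolded clients. Txndc5 had 243 FPKM in knockout and 269 FPKM in wild type with tunicamycin, against 81.2 FPKM in knockout and 87.7 FPKM in wild type with DMSO. Per the authors' deposited table, it rose by 1.58 (SE 0.21) in the knockout and 1.62 (SE 0.21) in wild type on the log2 scale, both q 0.000396. Txndc11 (mm9 chromosome 16, 11066391 to 11134625) encodes a membrane-bound thioredoxin-domain protein known in human cells as a partner of the mannosidase-like degradation factors EDEM. Its level was 29.1 FPKM in knockout and 33.2 FPKM in wild type with tunicamycin, against 12.8 FPKM in knockout and 15.0 FPKM in wild type with DMSO. The rise was 1.19 (SE 0.29) in the knockout and 1.15 (SE 0.28) in wild type on the log2 scale in the authors' deposited table, both q 0.000396. Txndc11 was the only 1 of the 10 genes whose fold change was larger in the knockout, by 0.04 (SE 0.40) on the log2 scale. The table lists it with the same interval as Snn, which was at or under 2.25 FPKM in every group.

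Creld2 moved most of all members and became the most abundant. Creld2 (mm9 chromosome 15, 88635673 to 88657131) encodes a secreted and ER-resident protein with EGF-like repeats and a CXXC motif, known as an ER stress gene. It had 1954 FPKM in knockout and 2572 FPKM in wild type with tunicamycin, against 44.3 FPKM in knockout and 35.6 FPKM in wild type with DMSO. By the authors' deposited table, it rose 44.1-fold in the knockout (log2 5.46, SE 0.36) and 72.2-fold in wild type (log2 6.17, SE 0.34), both q 0.000396. Only 0.222% of tested loci, 33 in number, had a larger log2 fold change in wild type, and 0.753% in the knockout. Creld2 took rank 1 of the 10 with tunicamycin in both genotypes, against rank 6 in knockout and rank 7 in wild type with DMSO.

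The oxidases were expressed below P4hb, Pdia3, Pdia4 and Pdia6 in every group. Ero1l (mm9 chromosome 14, 45902762 to 45938247), which RefSeq names Ero1a, encodes the widely expressed ERO1 alpha and is known in mouse cells as a target of CHOP, a transcription factor downstream of ATF4. Ero1l had 24.4 FPKM in knockout and 51.2 FPKM in wild type with tunicamycin, against 4.83 FPKM in knockout and 5.18 FPKM in wild type with DMSO. In the authors' deposited table Ero1l rose by 2.34 (SE 0.20) in the knockout and 3.31 (SE 0.20) in wild type on the log2 scale, both q 0.000396. The DMSO levels of both genotypes lay close together, and the tunicamycin level of the knockout was the lower.

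Ero1lb (mm9 chromosome 13, 12658150 to 12701795), which RefSeq names Ero1b, encodes ERO1 beta, best known from pancreatic cells that secrete much protein. Ero1lb had 94.6 FPKM in knockout and 135 FPKM in wild type with tunicamycin, against 15.4 FPKM in knockout and 14.5 FPKM in wild type with DMSO. It rose by 2.62 (SE 0.21) in the knockout and 3.21 (SE 0.20) in wild type on the log2 scale in the authors' deposited table, both q 0.000396. Ero1lb was above Ero1l in every group, with a ratio of FPKM of 3.87 in knockout and 2.63 in wild type with tunicamycin, against 3.18 in knockout and 2.80 in wild type with DMSO. Markers of exocrine pancreas, a tissue rich in Ero1lb, summed over 11 genes to 12.2 FPKM in knockout and 13.7 FPKM in wild type with tunicamycin, against 26.6 FPKM in knockout and 32.0 FPKM in wild type with DMSO. Of these 11 genes 6 were listed at 0 in knockout and 6 in wild type with tunicamycin, against 2 in knockout and 7 in wild type with DMSO. Cela3b and Amy2b were listed at 0 in every group. All but Cela1 and Cela2a were under 0.43 FPKM in every group, so nearly all of each sum came from Cela1 and Cela2a.

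The mix of oxidoreductase transcripts differed between stressed and unstressed liver. P4hb made up 21.0% of the summed FPKM of the 10 genes in knockout and 20.6% in wild type with tunicamycin, against 45.0% in knockout and 47.5% in wild type with DMSO. Creld2 held 24.8% in knockout and 26.3% in wild type with tunicamycin, against 3.34% in knockout and 2.63% in wild type with DMSO. For Pdia4 the share was 23.1% in knockout and 24.3% in wild type with tunicamycin, against 7.61% in knockout and 7.70% in wild type with DMSO. Thus P4hb ranked 3 of the 10 with tunicamycin, behind Creld2 and Pdia4, and 1 with DMSO, in both genotypes. The oxidases Ero1l and Ero1lb together were a small share in each group, with a summed 119 FPKM in knockout and 186 FPKM in wild type with tunicamycin, against 20.2 FPKM in knockout and 19.7 FPKM in wild type with DMSO. These shares are ratios of pooled values and carry no test.

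**Figure D3:**
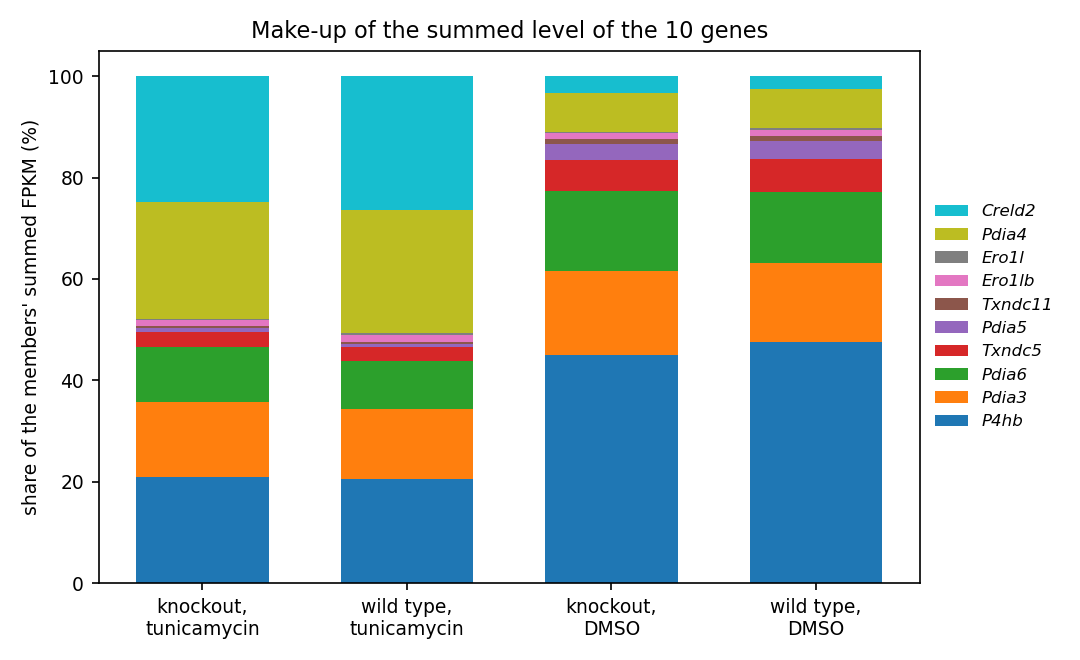
Share of each gene in the summed FPKM of the 10 genes, in percent, with 1 stacked bar per group. P4hb takes 21.0% and 20.6% of the sum with tunicamycin in knockout and wild type, against 45.0% and 47.5% with DMSO, and Creld2 24.8% and 26.3% against 3.34% and 2.63%.

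Between genotypes under tunicamycin, 1 of the 10 genes differed by the test. Per the authors' deposited table, Ero1l was lower in the knockout (log2 -1.07, SE 0.19, 95% interval -1.45 to -0.69, q 0.000396), with 24.4 FPKM in knockout against 51.2 FPKM in wild type. No member was higher. Of all tested loci 2.19% were called lower and 3.73% higher, so 1 of 10 lower is a count that differs from the background by less than 1 gene. All 10 log2 fold changes were below 0, with a median of -0.29, against -0.04 over all tested loci. The member closest to 0 was Pdia6 at -0.13, and 34.3% of tested loci had a lower value than it. These libraries all ran on lane 4. The summed muscle, adrenal, fat, hepatocyte and endothelium markers given above differ between the same groups. Of the hepatocyte markers only 1 of 9 tested was called, near the background. The part of these markers in the values of Ero1l and the other members was not tested.

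Ero1lb was next, at 94.6 FPKM in knockout against 135 FPKM in wild type with tunicamycin, and was not called. By the authors' deposited table, its log2 fold change was -0.51 (SE 0.22, unadjusted p 0.0176, q 0.0658). The remaining 8 genes ranged between -0.40 for Creld2 and -0.13 for Pdia6, with q between 0.319 and 0.837 in the authors' deposited table. For the abundant isomerases and for Creld2 the intervals were wide. That of P4hb ran from -1.05 to 0.48, that of Pdia4 from -1.17 to 0.40 and that of Creld2 from -1.18 to 0.39 on the log2 scale. Those of Pdia3 and Pdia6 ran from -0.85 to 0.47 and from -0.73 to 0.46. The intervals of Pdia4 and Creld2 hold a difference of the size seen for Ero1l, and those of P4hb, Pdia3 and Pdia6 do not reach it. The summed FPKM of the 10 genes in the knockout was 0.806 times that in wild type with tunicamycin, and that of both oxidases together 0.640 times.

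With DMSO, none of the 10 genes was called between genotypes in the authors' deposited table, and none had an unadjusted p under 0.05 there. Of all tested loci 1.47% were called lower and 1.39% higher. The log2 fold changes ran from -0.23 (Pdia5) to 0.31 (Creld2), with 6 below 0 and 4 above it, and their median was -0.07, the same as over all tested loci. Ero1l stood at -0.10 (SE 0.21, 95% interval -0.52 to 0.32), with 4.83 FPKM in knockout against 5.18 FPKM in wild type. For Pdia4 the value was -0.05, and its sign depended on the scaling between groups: recentred on the median of tested loci that carry a gene name and reach 1 FPKM in each genotype it was 0.04. Lane and genotype cannot be told apart here.

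**Figure D4:**
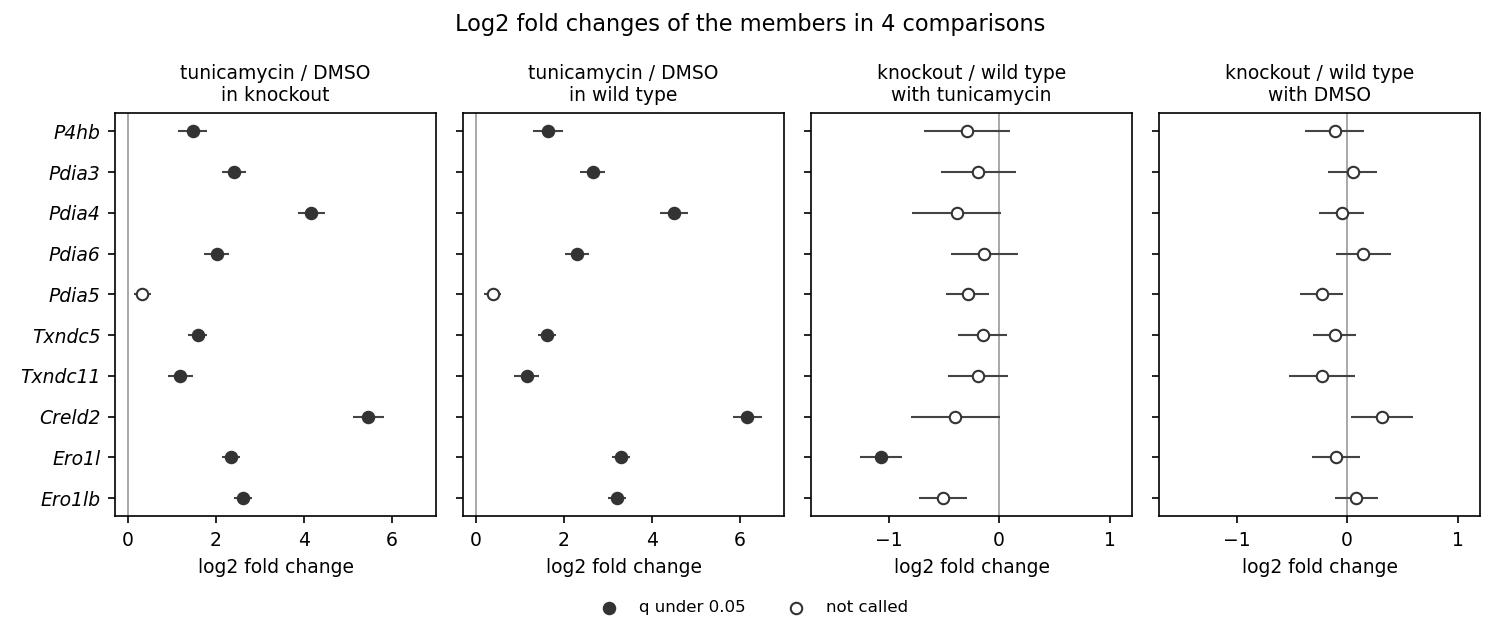
Log2 fold changes of the 10 genes in 4 comparisons, tunicamycin over DMSO in knockout and in wild type and knockout over wild type with tunicamycin and with DMSO; lines are ± 1 SE and filled points have q under 0.05. The point of Ero1l at -1.07 is the single filled one in both genotype comparisons, while 9 of 10 points are filled in each tunicamycin comparison.

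Whether the tunicamycin response itself differed between genotypes was tested as the difference of both log2 fold changes, knockout minus wild type, adjusted by Benjamini-Hochberg over 14510 loci. None of the 10 genes passed an adjusted p of 0.05, against 1.03% of all loci. For Ero1l the difference was -0.97 (SE 0.29, 95% interval -1.54 to -0.40, unadjusted p 0.000814, adjusted p 0.0742), and 3.51% of loci had a more negative one. Ero1lb was at -0.59 (SE 0.29, unadjusted p 0.0422, adjusted p 0.870). Creld2 was at -0.71 with an SE of 0.49, and its interval ran from -1.67 to 0.25. Of the 10 genes 9 had a smaller fold change in the knockout, with a median difference of -0.26, against 0.04 over all loci. The differences closest to 0 were those of Txndc5 (-0.04, 95% interval -0.61 to 0.54), Txndc11 (0.04, -0.75 to 0.82) and Pdia5 (-0.05, -0.59 to 0.49). The test is approximate because it rests on SEs derived from the deposited statistics, and it uses the knockout DMSO group of lane 5.

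**Figure D5:**
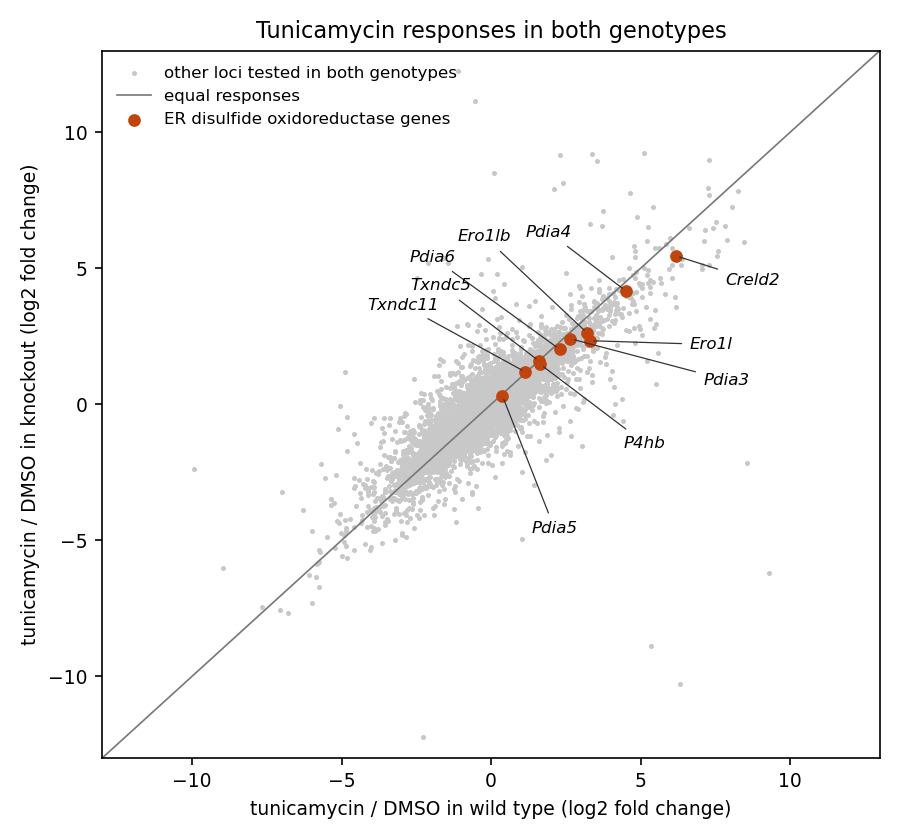
Log2 fold change after tunicamycin in knockout (y axis) against that in wild type (x axis) for 14510 loci, the 10 genes named and coloured, with a line where both are equal. Creld2 lies farthest out at 5.46 and 6.17, Pdia5 near the origin at 0.32 and 0.38, and Ero1l below the line at 2.34 and 3.31.

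Other genes of the same oxidative folding system were counted in 3 lists. Of 19 further thioredoxin-fold proteins of the ER 18 were matched. Among the tested ones, 5 rose and 1 fell of 14 in the knockout and 4 rose and 2 fell of 13 in wild type, in the authors' deposited table. Over all tested loci 18.1% rose and 14.8% fell in the knockout, and 18.1% rose and 19.0% fell in wild type, so the falls of this list are no more than the background. Dnajc10, the reductase ERdj5 that unfolds proteins for degradation, had 36.5 FPKM in knockout and 41.8 FPKM in wild type with tunicamycin, against 10.5 FPKM in each genotype with DMSO. In the authors' deposited table it rose by 1.80 in the knockout and 1.99 in wild type on the log2 scale. Erp29, a redox-inactive relative (1.25 and 1.27), and Erp44, which retrieves ERO1 and other proteins to the ER (1.06 and 0.89), rose as well in knockout and wild type in the authors' deposited table. Tmx3, a membrane isomerase, rose by 0.69 in each genotype in the authors' deposited table. Txndc15 fell in knockout and wild type (-0.61 and -0.62) and Txndc16 fell in wild type (-0.95), in the authors' deposited table. Txndc16 in the knockout was at -0.50 there (q 0.219), and the difference of responses was 0.46 (SE 0.41, adjusted p 1.00). The list's median was -0.03 in the knockout and -0.09 in wild type.

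Casq1 rose after tunicamycin in the knockout. It encodes the calcium-binding protein of the muscle reticulum and had 5.49 FPKM with tunicamycin against 0.217 FPKM with DMSO in that genotype (log2 4.66 in the authors' deposited table). In wild type Casq1 had 0.233 FPKM with tunicamycin against 0.148 FPKM with DMSO, and that response was not tested by the authors. Per the authors' deposited table, it was also higher in knockout than in wild type with tunicamycin (log2 4.56). It was the only 1 of 14 tested thioredoxin-fold genes called there, none being lower. Of all tested loci 3.73% were called higher and 2.19% lower in that comparison. Casq1 is also 1 of the 8 skeletal muscle markers given above. With DMSO none of 13 tested thioredoxin-fold genes was called between genotypes in the authors' deposited table, and 1 had an unadjusted p under 0.05. Over all tested loci 1.39% were called higher and 1.47% lower with DMSO.

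Of 16 electron donors, acceptors and other redox proteins of the ER 15 were matched and tested, of which 5 rose and 2 fell in the knockout and 4 rose and 4 fell in wild type after tunicamycin, in the authors' deposited table. The shares over all loci were 18.1% higher and 14.8% lower in the knockout and 18.1% higher and 19.0% lower in wild type, so the falls in the knockout and both counts in wild type lie near the background. Vimp, a selenoprotein of the retrotranslocation machinery, had 215 FPKM in knockout and 257 FPKM in wild type with tunicamycin, against 50.7 FPKM in knockout and 60.9 FPKM in wild type with DMSO. By the authors' deposited table, Vimp rose by 2.08 in both genotypes, and Selk, its selenoprotein partner, by 2.09 in the knockout and 1.87 in wild type, on the log2 scale. Vkorc1l1, a vitamin K epoxide reductase relative that can accept electrons from isomerases, rose by 1.19 in the knockout and 0.98 in wild type in the authors' deposited table. Qsox1, a sulfhydryl oxidase that makes disulfides without ERO1, fell by 0.70 in the knockout and 0.66 in wild type in the authors' deposited table. H6pd, which makes NADPH in the ER lumen, fell by 0.89 in the knockout and 0.70 in wild type there too, in the authors' deposited table. Sumf1 and Sumf2, the formylglycine-generating enzyme and its relative, fell in wild type (-0.58 and -1.28) in the authors' deposited table. They were at -0.40 (q 0.157) and -0.81 (q 0.116) in the knockout in the authors' deposited table and were not called, and their differences of responses had adjusted p 1.00. The oxidase Qsox2 rose by 0.96 in the knockout and 0.97 in wild type in the authors' deposited table. The list's median log2 fold change was -0.01 in the knockout and -0.18 in wild type.

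Between genotypes with tunicamycin H6pd was lower in the knockout in the authors' deposited table, at 43.3 FPKM in knockout against 63.5 FPKM in wild type (log2 -0.55, q 0.0252). This call was lost with q under 0.01 and with q computed within the comparison. Gpx8, a peroxidase that removes hydrogen peroxide in the ER, was higher, at 4.24 FPKM in knockout against 1.12 FPKM in wild type (log2 1.92, q 0.000747, in the authors' deposited table). Gpx8 also rose after tunicamycin in the knockout (log2 2.04) and was not called in wild type (log2 -0.10, q 0.929), in the authors' deposited table. The difference of these responses was 2.14 (SE 0.66, unadjusted p 0.00112, adjusted p 0.0921). The summed muscle, adrenal and fat markers given above were also higher in knockout than in wild type with tunicamycin. Their part in the value of Gpx8 was not tested. With DMSO, Prdx4, the ER peroxiredoxin that reoxidises isomerases independently of ERO1, was lower in the knockout, at 90.0 FPKM in knockout against 132 FPKM in wild type (log2 -0.56, q 0.0238, in the authors' deposited table). Prdx4 was the only 1 of 15 redox genes called with DMSO, where 1.47% of all tested loci were lower and 1.39% higher. The call was lost with q under 0.01 and with q computed within the comparison.

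Of the partners of the isomerases in glycoprotein folding and retrieval, all 17 were matched and 14 were tested in the tunicamycin comparisons, of which 10 rose and 2 fell in the knockout and 8 rose and 2 fell in wild type, in the authors' deposited table. With q under 0.01 the rises in the knockout numbered 7. All tested loci rose in 18.1% of cases in each genotype and fell in 14.8% in the knockout and 19.0% in wild type, so the 2 falls lie near the background. Their median log2 fold change was 0.80 in the knockout and 1.14 in wild type. Calr, the lectin chaperone that presents glycoproteins to Pdia3, had 2430.2 FPKM in knockout and 3101 FPKM in wild type with tunicamycin, against 498 FPKM in knockout and 439.8 FPKM in wild type with DMSO (log2 2.29 and 2.82 in the authors' deposited table). In the authors' deposited table Sdf2l1 (4.21 and 4.51) and Manf (4.09 and 4.08), both BiP-associated ER proteins, rose in knockout and wild type. So did the glycoprotein folding sensor Uggt1 (1.27 and 1.84) and the retrieval receptor Kdelr2 (1.74 and 1.63), in the authors' deposited table. Mttp, whose protein pairs with P4hb in lipoprotein assembly, fell by 0.90 in the knockout and 0.83 in wild type, in the authors' deposited table. Tapbp, which pairs with Pdia3 in loading of MHC class I, fell by 0.71 in the knockout and 0.88 in wild type in the authors' deposited table. None of 14 tested partners with tunicamycin, and none of 16 with DMSO, was called between genotypes in the authors' deposited table. None had an unadjusted p under 0.05 in either comparison. Of all tested loci 3.73% were called higher and 2.19% lower with tunicamycin, and 1.39% higher and 1.47% lower with DMSO. Hspa5 and Hsp90b1, which encode BiP and GRP94, are listed at 0 in the tunicamycin comparisons because the table marks them as too deep to compute, so they were not tested there.

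The genes most like each member over the 4 groups were found among 8120 loci, as the smallest root mean square difference of log2 FPKM relative to wild type with DMSO over the other groups. Nearest to Ero1l were Nde1 (0.09), Ppp1r15a (0.09), which encodes the phosphatase subunit GADD34, and Mxd1 (0.12). Ppp1r15a had 29.6 FPKM in knockout and 60.8 FPKM in wild type with tunicamycin, against 5.46 FPKM in knockout and 5.74 FPKM in wild type with DMSO. Nearest to Ero1lb were Dnajc3 (0.05), which encodes the ER co-chaperone p58IPK, Gnat2 (0.07) and Chka (0.10). For Pdia4 they were Syvn1 (0.10), the ER ubiquitin ligase HRD1, Gadd45a (0.11) and Sdf2l1 (0.21). Creld2 had no close match, with Slc7a1 (0.28), Mcf2l (0.36) and Bhlha15 (0.42) as the nearest.

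Within the set the closest pair was P4hb and Txndc5, at 0.07, followed by Pdia3 with Pdia6 at 0.27 and Ero1l with Ero1lb at 0.29. Even for P4hb, Txndc5 was only the locus of rank 13 in likeness, so other loci lay closer still. Nearest to P4hb were Fnbp1l, Stard3nl and Prrc1, and to Txndc5 Klf6, Ipo5 and Srp19. For Pdia3 they were Rassf1, Snhg5 and Trim68, and Dhx37 and Rrp12 were among those nearest to Pdia6. Pdia5 was nearest to Pi4k2b, Dirc2 and Chic2, and Txndc11 to Cog8, Cggbp1 and Taf1d. With 4 pooled values per gene the measure ranks patterns and carries no test.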

How the data were processed

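The members and the gene lists were chosen with earlier results of these data known. Reads were converted with bcl2fastq, aligned to mm9 with TopHat2 2.0.4 and compared with Cufflinks and Cuffdiff, per the submitters' processing notes. The sources used here state neither the annotation nor the filters nor how libraries were scaled. ERCC spike-in RNA was added before poly(A) selection, per the labels' protocols. The authors deposited 1 FPKM value per locus and group, with the 3 libraries pooled. For each of 6 comparisons the authors also deposited p-values and q-values, a test statistic (a score) and a log2 fold change. The 4 comparisons with 1 factor changed were used.

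The deposited q-values match Benjamini-Hochberg values computed over all 90828 tests together, within 5.29e-07. A call needed q under 0.05 and the test status OK. The SE of a log2 fold change is its size over the deposited statistic times a scale (1.73 to 1.74) set from the deposited p-values. The difference of responses was tested as a z-value. A run on simulated data drew its errors from the same derived SEs, so it could not check the SEs themselves. Locus starts, which count from 0 in the table, were written from 1. Genes named were the 10 members, the called genes of each list with the largest change (up to 4 per direction and comparison) and the 3 loci most like each member among those with at least 5 FPKM in 1 group. Further settings, given in the closing section, changed the q threshold, the family of the adjustment, a minimum fold of 2, a minimum of 1 FPKM, a pseudocount of 1 FPKM, the centring and the source of the SE. One gene that this rule names is not reported here. Promoters came from RefSeq, build GRCm38.p6. Computations used Python 3.11.15 with matplotlib 3.10.9, scipy 1.17.1, pandas 2.3.3 and numpy 2.4.6.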

Additional observations from a re-analysis of the deposited data

How the results depend on the processing

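No paired analysis was possible because the table holds 1 pooled value per group. For the same reason no library could be left out, and the depth per library, which would limit the precision, is unknown. The counts of members called stayed within 1.5 times their main value in all 4 comparisons under q under 0.01, q computed within 1 comparison, a 2-fold minimum, a 1 FPKM minimum and recentring. The difference of responses of Ero1l kept its direction. Its adjusted p was 1.00 with SEs from the p-values (48 loci called in all, against 149) and 0.0501 after recentring (148 called). In the authors' test the p of Ero1l was 5e-05 in both tunicamycin comparisons, the smallest they deposited. An SE taken from it is only an upper bound, so that setting cannot decide for Ero1l. With q under 0.01, the falls among thioredoxin-fold genes after tunicamycin numbered 0 in the knockout and 0 in wild type, and those among redox partners in wild type 2, while the rises among folding partners in the knockout numbered 7 in place of 10. The fall of H6pd with tunicamycin and that of Prdx4 with DMSO, each the single call of its kind, left counts of 0 with q under 0.01 and 0 with q within the comparison. The log2 fold change of Pdia4, knockout over wild type with DMSO, was 0.038 after recentring against -0.05 as deposited. The ERSE without its last base, added after the data were seen, matched 5 genes in place of 3. Each symbol stood at 1 locus, so the use of other loci gave no value. The cause of these changes was not tested beyond what the settings themselves change.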
